A study of Mus musculus with 20 samples.

Results

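The UDP-glucuronosyltransferases (Ugt), glutathione S-transferases (Gst) and sulfotransferases (Sult) are the conjugating, or phase II, enzymes of the liver, and their messenger RNA was followed in livers of fasted mice that lacked MCAD or not and had received LPS or not. The members were all genes whose probe sets name a single gene with a Ugt symbol, a Sult symbol or a Gst symbol of class a, k, m, o, p or t. They numbered 43 of the 18193 genes on the array, with 11 Ugt, 19 Gst and 13 Sult genes. Of these, 33 were bright enough to test (10 Ugt, 17 Gst and 6 Sult genes), among 8774 tested genes in all. Membership goes by name, not by value.

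Phase II enzymes attach a water-soluble group to drugs, hormones, bile acids and reactive metabolites, so that they can leave in bile or urine. Ugt enzymes of the endoplasmic reticulum transfer a sugar, mostly glucuronic acid from UDP-glucuronic acid. Most Gst enzymes couple glutathione to reactive electrophiles, and Sult enzymes of the cytosol transfer sulfate from the carrier PAPS. Hepatocytes hold most of these enzymes in liver, and inflammation is known to lower many of them together with cytochrome P450 enzymes.

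MCAD, encoded by Acadm, is the medium-chain acyl-CoA dehydrogenase of mitochondrial fat oxidation, on which fasting liver draws. LPS is lipopolysaccharide from bacterial cell walls, a trigger of inflammation. The groups were 5 MCAD-/- mice with LPS, 5 wild type mice with LPS, 5 MCAD-/- mice with vehicle and 5 wild type mice with vehicle, and the dose of LPS was 100 µg per 20 g body weight. All 20 were males of 50 to 60 days on a mixed BL6/SV129 background, and all had fasted for 12 h. No fed group was among them, and littermate status is not in the labels.

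Each mouse had 1 Affymetrix array, whose deposited values are intensities on a linear scale, called units here. Levels of different genes are not set against each other, because probe sets differ in brightness per transcript. A gene was tested where it exceeded 16 units on at least 5 arrays. Differences are on the log2 scale, where 1 is a doubling, and are given with their standard error (SE). Each p-value is from limma and adjusted for all 8774 tested genes (for a gene's further probe sets, in a separate fit over all tested probe sets), and a gene is said to have risen, fallen or differed where it was under 0.05.

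Acadm checked the genotype labels. Acadm with LPS read 19.1, 56.0, 218, 37.8 and 14.3 units in MCAD-/- mice, against 1842, 1883, 1663, 1450 and 2375 units in wild type mice. Acadm with vehicle read 37.5, 34.3, 9.03, 80.2 and 56.5 units in MCAD-/- mice, against 3423, 3106, 4022, 3283 and 3271 units in wild type mice. Every MCAD-/- mouse lay below every wild type mouse, 43.6-fold lower on average with LPS and 97.3-fold lower with vehicle. On the arrays, 30.27% to 32.36% of probe sets exceeded 16 units. The log2 ratio of the 3' to the 5' actin control probe sets, which rises as RNA is degraded, was 3.69 in replicate 4 of the wild type mice with LPS and 3.18 in replicate 3 of the wild type mice with vehicle, against 1.35 to 2.34 in the other mice.

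The tissue is labelled liver, and summed hepatocyte markers (7 on the array) read 65862 to 70900 units in MCAD-/- and 63970 to 69706 units in wild type mice with LPS. With vehicle the sums were 79028 to 88380 units in MCAD-/- and 79688 to 85228 units in wild type mice. The bile duct markers Krt7, Krt19, Epcam and Sox9 and the lymphocyte markers Cd3e, Cd3d, Nkg7, Cd79a and Ms4a1 were under 16 units on all arrays. In such bulk tissue, fewer cells of a type and less RNA per cell cannot be told apart.

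In the genotype comparisons, most conjugating enzymes did not pass the test, and a few differed by large amounts. With LPS, 5 of the 33 tested members were higher and 9 lower in MCAD-/- than in wild type mice, when 20.6% of all tested genes differed (8.75% higher and 11.8% lower). With vehicle, 3 were higher and 4 lower, when 16.2% of all tested genes differed (9.81% higher and 6.39% lower). The vehicle count was 4 without replicate 4 of the MCAD-/- mice with vehicle or replicate 2 or 5 of the wild type mice with vehicle. Ugt2b38, Ugt3a1 and Ugt2a3 were higher and Sult5a1, Gstm4 and Ugt2b35 lower in MCAD-/- mice under both treatments. The members' median log2 difference was -0.03 with LPS and -0.04 with vehicle, beside -0.03 and 0.04 over all tested genes. Between the genotypes, 4 members with LPS lay higher and 6 lower in every MCAD-/- mouse than in any wild type mouse, beside 5.44% higher and 7.36% lower of all tested genes (12.8% in all). With vehicle 2 lay higher and 5 lower without overlap, beside 7.68% higher and 6.11% lower of all tested genes (13.8% in all).

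**Figure D1:**
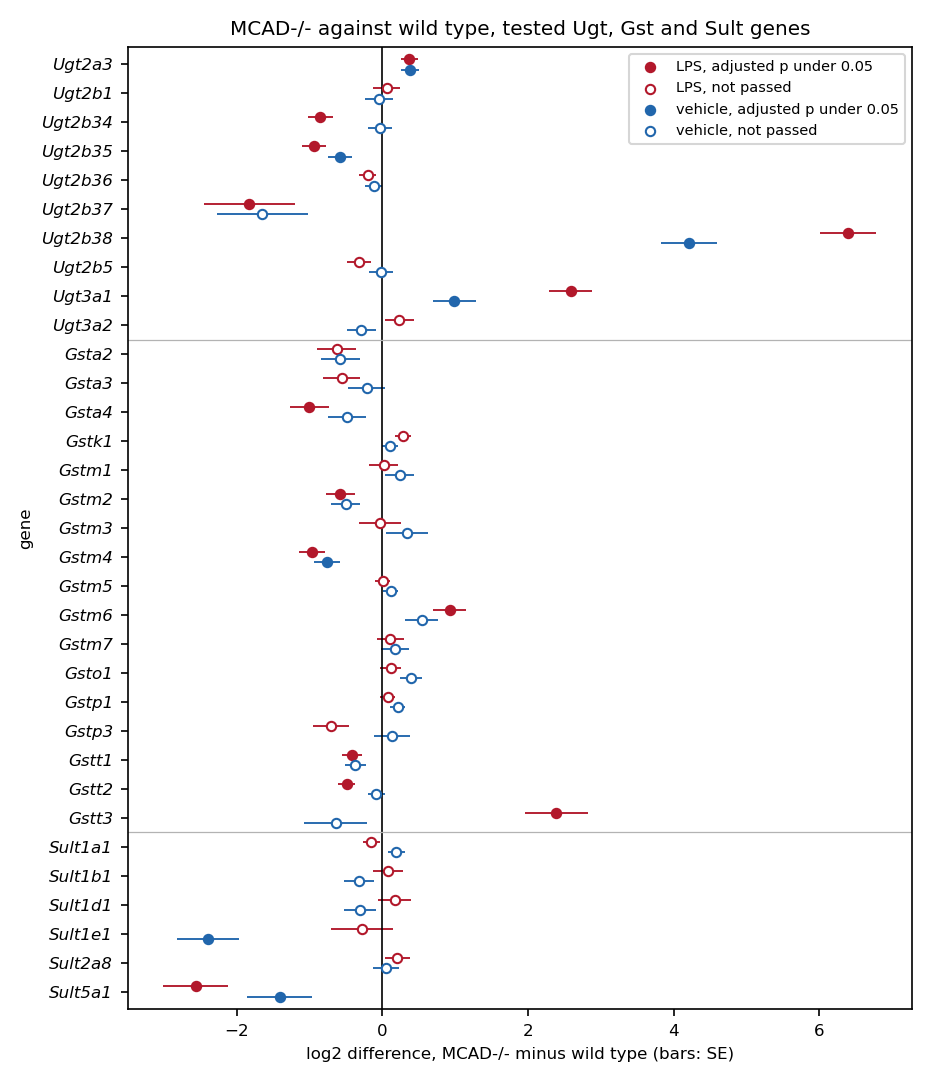
The x axis is the log2 difference, MCAD-/- minus wild type, and the y axis lists the 33 tested genes by family (Ugt at the top, Gst in the middle, Sult at the bottom). Red points are LPS and blue points vehicle, bars are SE, filled points passed an adjusted p of 0.05, with Ugt2b38 furthest right (6.40 and 4.21, set by wild type values under 16 units) and Sult5a1 furthest left with LPS (-2.56).

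Ugt2b38 showed the largest genotype difference among the members. Ugt2b38 with LPS read 463, 511, 349, 300 and 381 units in MCAD-/- mice, against 4.40, 5.62, 3.21, 6.42 and 4.37 units in wild type mice. Ugt2b38 with vehicle read 130.5, 196, 319, 115 and 33.8 units in MCAD-/- mice, against 5.14, 7.80, 8.39, 7.54 and 5.79 units in wild type mice. All 10 MCAD-/- mice were above 16 units and all 10 wild type mice below, so that the groups did not overlap under either treatment. Against the limit of 16 units the difference was at least 24.6-fold with LPS and at least 7.88-fold with vehicle. The adjusted p was 1.73e-10 and 1.05e-07 on the values as deposited, and over the alternatives, setting values under 16 units to 16 among them, it was at most 8.59e-09 with LPS and 0.000106 with vehicle. Ugt2b38 passed the filter on low values through MCAD-/- mice alone.

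Within MCAD-/- mice Ugt2b38 was also higher with LPS than with vehicle, by 1.64 ± 0.39 on the log2 scale (adjusted p = 0.000949), although replicate 3 of the vehicle mice lay within the range of the LPS mice. The response to LPS was larger in MCAD-/- than in wild type mice by 2.19 ± 0.54 (adjusted p = 0.0266). That call rested on wild type values under 16 units and ended when these were set to 16 (adjusted p from 0.00584 to 0.0631 over the alternatives).

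The Ugt2b genes lie side by side on chromosome 5 in the RefSeq annotation of GRCm38.p6, in the order Ugt2b34, Ugt2b1, Ugt2b35, Ugt2b36, Ugt2b5, Ugt2b37, Ugt2a3 and Ugt2b38, with no other coding gene between them. The start regions of Ugt2b38 and of its closest neighbours by sequence are shown because these genes read so differently in the same livers. Each is 300 bases from RefSeq (GRCm38.p6), 250 before and 50 after the annotated start, 5′ to 3′ on the gene's strand: Ugt2b38 at chr5:87424154-87424453, minus strand, Ugt2b37 at chr5:87254739-87255038, minus strand, Ugt2b5 at chr5:87140291-87140590, minus strand and Ugt2b36 at chr5:87092506-87092805, minus strand. Capitals mark the letters AGGTCA, the core to which nuclear receptors bind, and TTNNGNAA, a core of C/EBP sites, searched on both strands.
Ugt2b38: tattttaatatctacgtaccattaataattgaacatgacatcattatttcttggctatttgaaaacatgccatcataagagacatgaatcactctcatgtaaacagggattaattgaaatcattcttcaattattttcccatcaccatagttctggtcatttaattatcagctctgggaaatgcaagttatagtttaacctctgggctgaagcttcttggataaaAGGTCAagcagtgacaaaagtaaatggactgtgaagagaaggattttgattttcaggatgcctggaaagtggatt
Ugt2b37: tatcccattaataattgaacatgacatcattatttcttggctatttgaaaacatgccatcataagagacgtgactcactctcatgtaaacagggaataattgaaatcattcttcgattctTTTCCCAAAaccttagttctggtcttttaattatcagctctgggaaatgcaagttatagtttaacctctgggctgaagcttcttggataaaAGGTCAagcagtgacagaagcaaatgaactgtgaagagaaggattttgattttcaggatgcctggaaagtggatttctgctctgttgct
Ugt2b5: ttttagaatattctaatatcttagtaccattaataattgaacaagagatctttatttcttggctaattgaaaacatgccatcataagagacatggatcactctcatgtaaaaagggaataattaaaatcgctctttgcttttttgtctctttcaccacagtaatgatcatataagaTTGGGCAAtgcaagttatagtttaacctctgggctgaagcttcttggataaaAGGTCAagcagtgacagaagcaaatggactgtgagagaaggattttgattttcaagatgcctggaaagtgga
Ugt2b36: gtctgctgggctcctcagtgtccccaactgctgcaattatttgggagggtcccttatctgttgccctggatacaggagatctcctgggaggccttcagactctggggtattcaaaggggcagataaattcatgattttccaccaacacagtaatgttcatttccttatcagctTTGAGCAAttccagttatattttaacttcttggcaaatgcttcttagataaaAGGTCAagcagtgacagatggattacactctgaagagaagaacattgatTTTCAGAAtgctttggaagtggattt
The aligned part of the Ugt2b38 window was 95.5% identical to that of Ugt2b37, 90.0% to Ugt2b5 and 71.1% to Ugt2b36, and 62.0% to 65.6% to the other Ugt2 members. AGGTCA stood 25 bases before the start in Ugt2b38 and Ugt2b36, 39 before it in Ugt2b37 and 22 before it in Ugt2b5, in the same run of 21 bases. AGGTCA occurred in 16.26% of all 32851 RefSeq start windows and TTNNGNAA in 40.68%.

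Ugt2b37, the gene with the nearest start sequence, did not share the pattern of Ugt2b38. It is singled out here after its values were seen. Ugt2b37 with LPS read 7.14, 13.0, 10.8, 20.1 and 6.11 units in MCAD-/- mice, against 60.2, 91.3, 108, 15.9 and 7.32 units in wild type mice. Ugt2b37 with vehicle read 15.9, 18.0, 19.6, 11.9 and 7.22 units in MCAD-/- mice, against 12.7, 78.0, 43.6, 68.5 and 49.0 units in wild type mice. MCAD-/- mice reached 20.1 units at most and wild type mice scattered widely, so that the groups overlapped. It was lower in MCAD-/- mice with LPS (log2 difference -1.83 ± 0.62, adjusted p = 0.043) and differed by -1.65 ± 0.62 with vehicle (adjusted p = 0.0803). Its call ended in 13 of 29 alternatives (adjusted p from 0.00404 to 0.122), among them without replicate 1, 2, 3 or 5 of the MCAD-/- mice with LPS, replicate 1, 2 or 3 of the wild type mice with LPS, replicate 1 or 4 of the MCAD-/- mice with vehicle or replicate 5 of the wild type mice with vehicle. Its spread within groups, 1.09 on the log2 scale, was the largest of the tested members. Ugt2b transcripts are alike in sequence, and how far each probe set reads its neighbours' transcripts was not tested.

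Ugt2b5 and Ugt2b36 did not pass in the genotype comparisons. Their log2 differences with LPS were -0.32 (95% interval -0.66 to 0.02) and -0.20 (-0.44 to 0.05), and those with vehicle -0.02 (-0.36 to 0.32) and -0.12 (-0.36 to 0.13). Ugt2b35 was lower in MCAD-/- mice. Ugt2b35 with LPS read 622, 819, 376, 711 and 481 units in MCAD-/- mice, against 1298, 1066, 1083, 1105 and 1031 units in wild type mice. Ugt2b35 with vehicle read 954, 931, 991, 1071 and 949 units in MCAD-/- mice, against 1492, 1339, 1922, 1336 and 1292 units in wild type mice. The genotypes did not overlap under either treatment, and the differences were -0.94 ± 0.16 with LPS (adjusted p = 0.000352) and -0.58 ± 0.16 with vehicle (adjusted p = 0.0194). The vehicle call ended without replicate 3 of the wild type mice with vehicle, one of the pair with high actin ratios (adjusted p from 0.00495 to 0.0557 over the alternatives).

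Ugt3a1 was also higher in MCAD-/- mice. The human enzymes of this class use other sugars than glucuronic acid, N-acetylglucosamine in UGT3A1 and glucose in UGT3A2. Ugt3a1 with LPS read 379, 257, 149, 151 and 387 units in MCAD-/- mice, against 31.6, 58.8, 26.6, 28.2 and 77.8 units in wild type mice. Ugt3a1 with vehicle read 156, 176, 190.1, 180.1 and 119 units in MCAD-/- mice, against 78.6, 79.9, 86.5, 84.3 and 78.5 units in wild type mice. Every MCAD-/- mouse exceeded every wild type mouse under the same treatment, on average 6.01-fold with LPS (log2 difference 2.59 ± 0.29, adjusted p = 2.58e-06) and 1.99-fold with vehicle (0.99 ± 0.29, adjusted p = 0.0257).

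LPS lowered Ugt3a1 in wild type mice (log2 difference -1.01 ± 0.29, adjusted p = 0.00536), while in MCAD-/- mice the difference was 0.59 ± 0.29 (adjusted p = 0.0863). The LPS responses of the genotypes differed by 1.60 ± 0.42 (adjusted p = 0.033). This last call ended in 10 of 29 alternatives (adjusted p from 0.00939 to 0.0856), among them without replicate 1, 2 or 5 of the MCAD-/- mice with LPS, replicate 1 or 4 of the wild type mice with LPS, replicate 1 of the MCAD-/- mice with vehicle or replicate 2, 4 or 5 of the wild type mice with vehicle. The vehicle call ended without replicate 2, 3 or 4 of the MCAD-/- mice with vehicle or replicate 2 or 5 of the wild type mice with vehicle (adjusted p from 0.000299 to 0.0585). In the fit over probe sets, a dimmer probe set of the gene gave the same directions, passed for the LPS genotype difference (2.06) and missed for the vehicle difference (0.74, adjusted p = 0.0973) and the difference of responses (1.32, adjusted p = 0.0789), which the brighter one passed (adjusted p = 0.0314 and 0.0422). Ugt3a2, the neighbouring gene on chromosome 15, differed between genotypes by 0.23 ± 0.20 with LPS and -0.29 ± 0.20 with vehicle, neither past the test.

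The start region of Ugt3a1 (chr15:9279579-9279878, plus strand) is shown as that of a gene whose LPS response differed between genotypes. Capitals mark a match to GTTAAT (HNF1) read on the opposite strand, a TTNNGNAA match and TATAAA, the letters of a TATA box. TATAAA begins at -8 from the annotated start here, and whether it acts as a TATA box was not tested. GTTAAT occurred in 7.1% and TATAAA in 13.62% of all start windows.
Ugt3a1: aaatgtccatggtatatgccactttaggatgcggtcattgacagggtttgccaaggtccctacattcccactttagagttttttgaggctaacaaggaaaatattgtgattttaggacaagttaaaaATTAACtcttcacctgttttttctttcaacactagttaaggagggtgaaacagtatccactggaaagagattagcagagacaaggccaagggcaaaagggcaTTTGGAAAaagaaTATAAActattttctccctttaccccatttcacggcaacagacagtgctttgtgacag

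Ugt2a3, a Ugt of hepatocytes and gut, was slightly higher in MCAD-/- mice, by 0.37 ± 0.12 with LPS (adjusted p = 0.0324) and 0.38 ± 0.12 with vehicle (adjusted p = 0.0334). The LPS call ended without replicate 2, 3 or 4 of the MCAD-/- mice with LPS or replicate 2, 3, 4 or 5 of the wild type mice with LPS (adjusted p from 0.0176 to 0.0897 over the alternatives), and the vehicle call without replicate 1, 3 or 4 of the MCAD-/- mice with vehicle or replicate 1, 2, 4 or 5 of the wild type mice with vehicle (adjusted p from 0.00718 to 0.0913). Ugt2b34 was lower in MCAD-/- mice with LPS (log2 difference -0.85 ± 0.17, adjusted p = 0.00104) and without a difference past the test with vehicle (-0.03 ± 0.17).

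**Figure D2:**
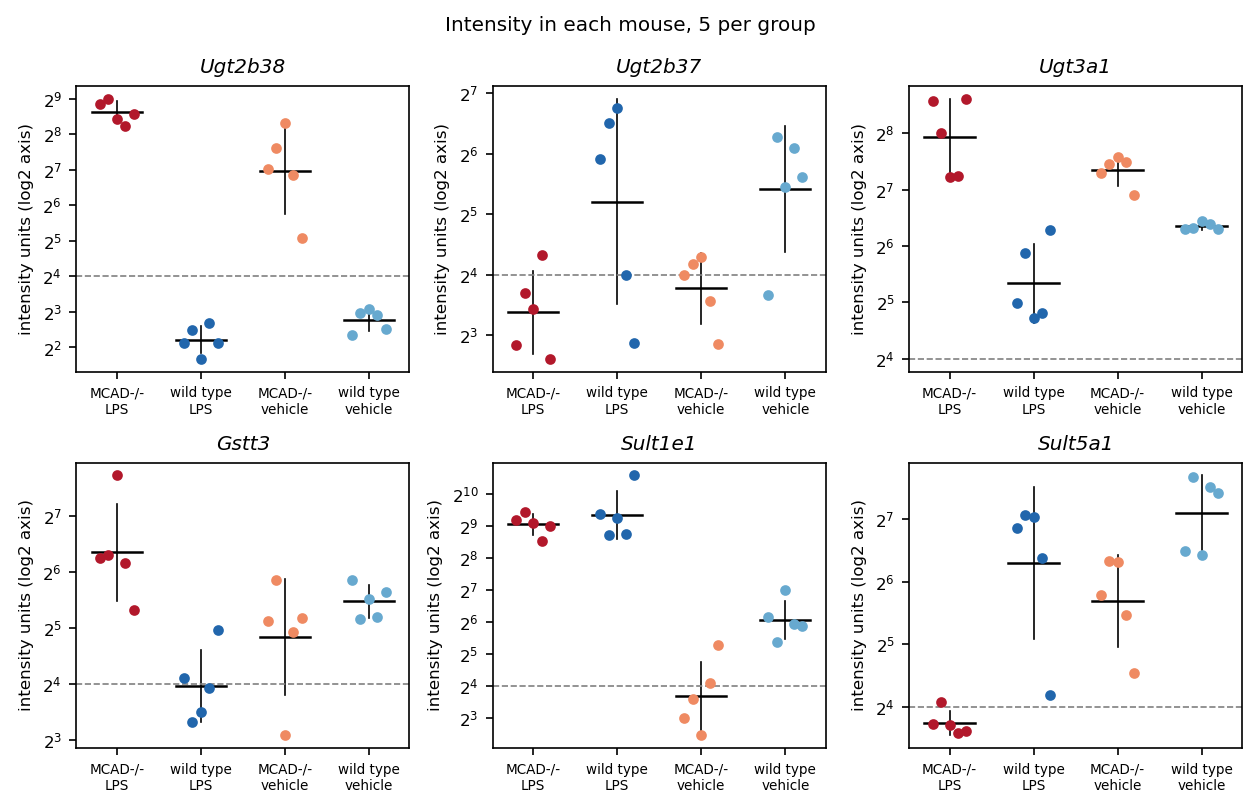
Each panel plots 1 gene in each of the 20 mice, with intensity units on a log2 axis, and the groups from left to right are MCAD-/- LPS, wild type LPS, MCAD-/- vehicle and wild type vehicle. Short black lines are geometric means with 1 SD on the log2 scale, and the dashed line is 16 units, above which every MCAD-/- mouse and below which every wild type mouse lies for Ugt2b38.

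Among the Gst genes, Gstt3 of the theta class stood apart. Gstt3 with LPS read 76.8, 79.5, 212, 71.8 and 40.2 units in MCAD-/- mice, against 17.3, 10.0, 11.4, 15.2 and 31.4 units in wild type mice. Gstt3 with vehicle read 35.1, 58.3, 8.50, 30.5 and 36.4 units in MCAD-/- mice, against 58.3, 35.7, 46.2, 36.9 and 50.3 units in wild type mice. With LPS every MCAD-/- mouse lay above every wild type mouse, while with vehicle the ranges overlapped and replicate 3 of the MCAD-/- mice was far below the rest. Gstt3 was higher in MCAD-/- mice with LPS by 2.39 ± 0.44 (adjusted p = 0.000612), a size that depends on 3 wild type values under 16 units, and differed by -0.64 ± 0.44 with vehicle (adjusted p = 0.36).

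LPS raised Gstt3 in MCAD-/- mice by 1.52 ± 0.44 (adjusted p = 0.00497) and lowered it in wild type mice (log2 difference -1.51 ± 0.44, adjusted p = 0.00524). The MCAD-/- ranges overlapped, with replicate 2 of the vehicle mice at 58.3 units and replicate 5 of the LPS mice at 40.2 units. The size of the wild type fall, and with it that of the difference of responses, depends on wild type LPS values under 16 units. Gstt3 was the only tested member that passed in opposite directions in the genotypes, and the difference of the responses was 3.03 ± 0.62 (adjusted p = 0.00799, with adjusted p from 0.00311 to 0.0235 over the alternatives). Its neighbours on chromosome 10, Gstt1 and Gstt2, were lower in MCAD-/- mice with LPS, with log2 differences of -0.41 ± 0.14 (adjusted p = 0.0433) and -0.49 ± 0.12 (adjusted p = 0.0057). The Gstt1 call ended in 14 of 30 alternatives (adjusted p from 0.0093 to 0.124), among them without replicate 1, 2, 3 or 4 of the MCAD-/- mice with LPS, replicate 1, 2 or 5 of the wild type mice with LPS, replicate 4 of the MCAD-/- mice with vehicle or replicate 2, 4 or 5 of the wild type mice with vehicle.

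The mu class genes Gstm5, Gstm7, Gstm6, Gstm3, Gstm2, Gstm1 and Gstm4 adjoin each other in that order on chromosome 3, the chromosome that also carries Acadm, with 236 coding genes between Acadm and Gstm4. Their transcripts are alike, so that the split among them is uncertain. Gstm4 was lower in MCAD-/- mice. Gstm4 with LPS read 15.2, 21.4, 17.1, 19.9 and 15.6 units in MCAD-/- mice, against 56.5, 30.7, 27.4, 36.2 and 28.7 units in wild type mice. Gstm4 with vehicle read 41.8, 57.5, 60.3, 50.9 and 48.0 units in MCAD-/- mice, against 90.8, 77.9, 122, 77.4 and 73.8 units in wild type mice. The genotypes did not overlap, and the differences were -0.97 ± 0.18 with LPS (adjusted p = 0.000745) and -0.76 ± 0.18 with vehicle (adjusted p = 0.0065).

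Gstm6 went the other way. Gstm6 with LPS read 133, 151, 141, 176 and 166 units in MCAD-/- mice, against 51.8, 107, 87.7, 109 and 63.7 units in wild type mice. Gstm6 with vehicle read 239, 248, 222, 202 and 218 units in MCAD-/- mice, against 176, 99.1, 274, 127 and 146 units in wild type mice. The genotypes were apart with LPS (0.92 ± 0.22, adjusted p = 0.00583) and overlapped with vehicle through replicate 3 of the wild type mice, which had a high actin ratio (0.54 ± 0.22, adjusted p = 0.108). Without the 2 wild type mice of high actin ratio the vehicle difference passed (adjusted p from 0.0093 to 0.279 over the alternatives).

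Gstm2 was lower in MCAD-/- mice with LPS (-0.58 ± 0.20, adjusted p = 0.0486), a call that ended in 20 of 30 alternatives (adjusted p from 0.0212 to 0.142), among them without replicate 1, 3 or 4 of the MCAD-/- mice with LPS, replicate 1, 3, 4 or 5 of the wild type mice with LPS, replicate 1, 3 or 5 of the MCAD-/- mice with vehicle or replicate 2, 3, 4 or 5 of the wild type mice with vehicle. Gsta4, which conjugates the lipid peroxidation product 4-hydroxynonenal, was lower in MCAD-/- mice with LPS (log2 difference -1.003 ± 0.27, adjusted p = 0.011). It read 59.9 to 177 units in MCAD-/- mice, against 145 to 242 units in wild type mice. The other 4 Gstm genes and Gsta2, Gsta3, Gstk1, Gsto1, Gstp1 and Gstp3 did not pass in either genotype comparison, with log2 differences from -0.70 (Gstp3) to 0.29 (Gstk1) with LPS and from -0.57 (Gsta2) to 0.39 (Gsto1) with vehicle. Gstp3 lay just outside the test with LPS (adjusted p = 0.0502), with no overlap between the genotypes, and passed in 15 of 30 alternatives (adjusted p from 0.00507 to 0.147). A second Gsta3 probe set was lower in MCAD-/- mice with LPS (log2 difference -1.11, adjusted p = 0.0356), while the brighter one read -0.56 (adjusted p = 0.146 in the same fit over probe sets).

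Of the Sult genes, Sult5a1 was lower in MCAD-/- mice under both treatments. Sult5a1 with LPS read 13.3, 16.9, 13.1, 12.0 and 12.3 units in MCAD-/- mice, against 116, 134, 131, 82.9 and 18.3 units in wild type mice. Sult5a1 with vehicle read 55.4, 80.2, 79.6, 44.5 and 23.4 units in MCAD-/- mice, against 89.9, 204, 85.9, 182 and 170.4 units in wild type mice. The genotypes did not overlap, and 4 of 5 MCAD-/- mice with LPS were under 16 units. The differences were -2.56 ± 0.44 with LPS (adjusted p = 0.000354) and -1.41 ± 0.44 with vehicle (adjusted p = 0.0351). The vehicle call ended without replicate 1, 4 or 5 of the MCAD-/- mice with vehicle or replicate 2, 4 or 5 of the wild type mice with vehicle (adjusted p from 0.00283 to 0.0931 over the alternatives). LPS lowered Sult5a1 in MCAD-/- mice (log2 difference -1.95 ± 0.44, adjusted p = 0.000737), and the difference in wild type mice was -0.80 ± 0.44 (adjusted p = 0.124). The responses themselves differed by -1.15 ± 0.63 (adjusted p = 0.321), which passed only without replicate 5 of the wild type mice with LPS (adjusted p from 0.0314 to 0.505).

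Sult1e1, the estrogen sulfotransferase, was lower in MCAD-/- mice with vehicle, and its genotype difference with LPS did not pass. Sult1e1 with vehicle read 7.96, 12.0, 5.47, 16.9 and 38.6 units in MCAD-/- mice, against 72.0, 41.2, 128, 61.8 and 58.1 units in wild type mice. Sult1e1 with LPS read 588, 699.6, 553, 373 and 508 units in MCAD-/- mice, against 662, 424, 610.3, 429 and 1535 units in wild type mice. With vehicle the genotypes were apart, and 3 of 5 MCAD-/- mice were under 16 units (-2.39 ± 0.43, adjusted p = 0.000535). With LPS they overlapped (-0.28 ± 0.43, 95% interval -1.17 to 0.61, adjusted p = 0.7). The LPS responses of the genotypes differed by 2.12 ± 0.60, just outside the test (adjusted p = 0.0521, with adjusted p from 0.00797 to 0.136 over the alternatives). The remaining Sult genes did not pass in either genotype comparison, with log2 differences from -0.15 (Sult1a1) to 0.21 (Sult2a8) with LPS and from -0.31 (Sult1b1) to 0.19 (Sult1a1) with vehicle.

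Markers of cells other than hepatocytes also differed between the genotypes with vehicle. Of the endothelial markers tested, 5 of 6 were higher in MCAD-/- mice with vehicle, with sums of 1243 to 1719 units, against 415.5 to 843.1 units in wild type mice. Markers of Kupffer cells and other macrophages were higher for 6 of 7 tested genes, with sums of 1519 to 2101 units in MCAD-/- mice, against 801.9 to 1446 units in wild type mice. Of the stellate cell markers, 3 of 4 were higher, with sums of 439.7 to 559.6 units in MCAD-/- mice, against 225.1 to 376.2 units in wild type mice. With LPS none of these lists had a marker that was higher past the test, and 1 endothelial and 2 stellate cell markers were lower. Pecam1, Col1a1 and Des were under 16 units on all arrays. The part of these cells in the genotype differences with vehicle was not tested.

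LPS lowered most of the tested conjugating enzymes in both genotypes. In MCAD-/- mice 25 of the 33 tested members fell and 3 rose, when 65.7% of all tested genes changed (27.6% lower and 38.1% higher). In wild type mice 22 fell and 2 rose, when 64% of all tested genes changed (24.0% lower and 40.0% higher). The members' median log2 difference was -1.05 in MCAD-/- and -1.01 in wild type mice, while the median of all tested genes was 0.14 in MCAD-/- and 0.18 in wild type mice. Relative to the median gene the members' falls are larger by these shifts, and with each array centred on its median 26 members fell in MCAD-/- and 25 in wild type mice. In MCAD-/- mice 24 members lay lower and 1 higher in every LPS mouse than in any vehicle mouse (21.7% lower and 29.6% higher, or 51.4% of all tested genes, were so separated), and in wild type mice 20 lay lower and 2 higher (17.3% lower and 28.9% higher, or 46.1% of all tested genes).

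**Figure D3:**
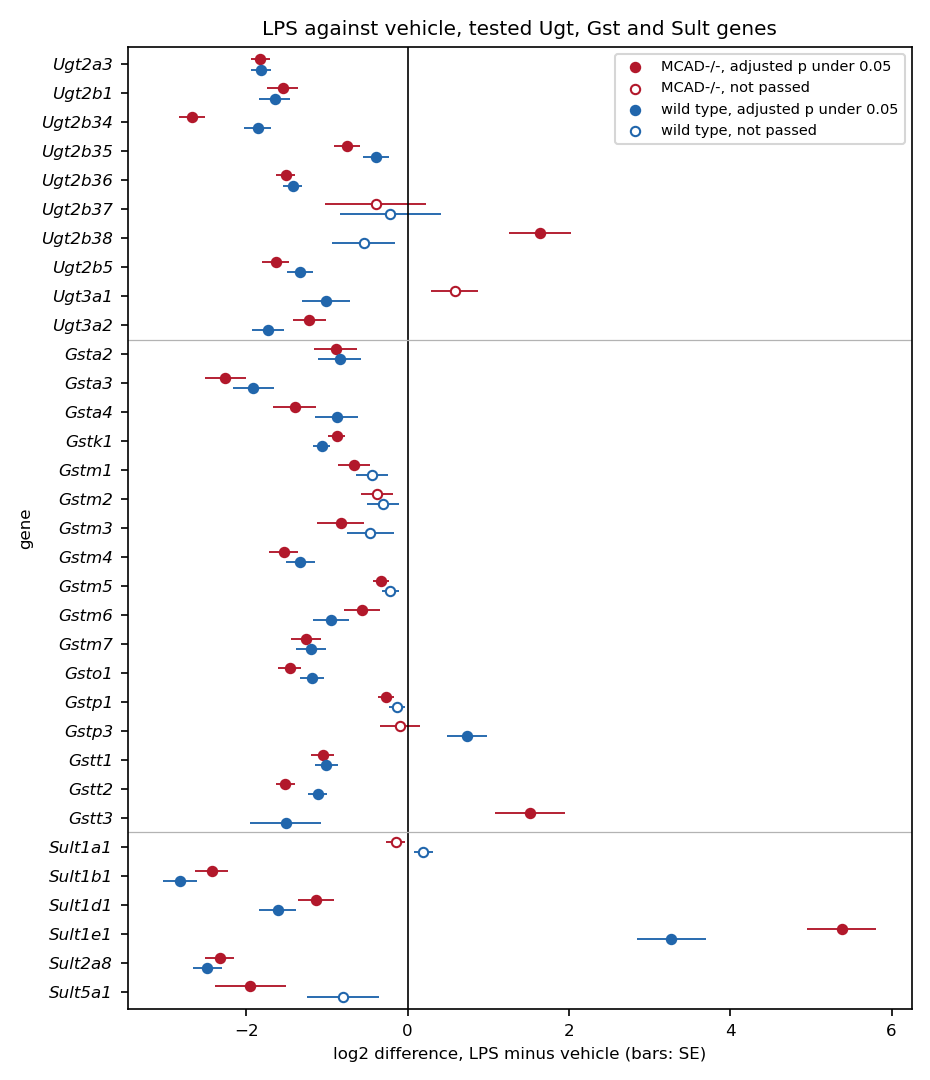
The x axis is the log2 difference, LPS minus vehicle, and the y axis lists the 33 tested genes by family (Ugt at the top, Gst in the middle, Sult at the bottom). Red points are MCAD-/- and blue points wild type mice, bars are SE and filled points passed an adjusted p of 0.05, with most points left of 0 and Sult1e1 furthest right (5.38 and 3.27).

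The responses of the genotypes, which share no mice, ran alike over the 33 members, with Pearson's r = 0.806 and Spearman's rho = 0.761 across genes, which are not independent. Of the members, 28 had the same sign, 21 passed in the same direction in both genotypes, 6 passed in MCAD-/- mice only and 2 in wild type mice only. This agreement was not computed over all tested genes, of which 65.7% changed with LPS in MCAD-/- and 64% in wild type mice. It therefore cannot be called particular to the members. A test of the difference of responses itself passed for 3 members (Ugt2b38, Ugt3a1 and Gstt3), all with the higher response in MCAD-/- mice, when 4.11% of all tested genes passed it (1.36% higher and 2.76% lower in MCAD-/- mice). It passed for 5 members without replicate 4 of the MCAD-/- mice with LPS and for 6 without replicate 5 of the wild type mice with LPS. Ugt2b38 passed the filter on low values through MCAD-/- mice alone, and its call ended with values under 16 units set to 16. The Ugt3a1 call ended in 10 of 29 alternatives. Hepatocyte markers fell too, 5 of 7 in each genotype, with medians of -0.27 in MCAD-/- and -0.43 in wild type mice. Neutrophil markers (3 tested) rose in both genotypes, with sums of 2676 to 3193 units with LPS in MCAD-/- mice, against 21.3 to 188.8 units with vehicle, and of 1825 to 3881 units with LPS in wild type mice, against 21.6 to 94.7 units with vehicle. Kupffer cell markers fell, 7 of 7 in MCAD-/- and 5 of 7 in wild type mice. Of 6 endothelial markers, 3 fell and 2 rose in MCAD-/- mice, and 1 fell and 4 rose in wild type mice. Of 4 stellate cell markers, 3 fell in MCAD-/- mice, and 1 fell and 2 rose in wild type mice. The part of these cells in the falls of the members was not tested.

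Of the 10 tested Ugt genes, 7 fell and 1 rose in MCAD-/- mice, and 8 fell in wild type mice. Beside this and the counts by family and class that follow, 27.6% of all tested genes fell and 38.1% rose in MCAD-/- mice. In wild type mice 24.0% fell and 40.0% rose. Ugt2b34 fell most of the Ugt genes in both genotypes. Ugt2b34 in MCAD-/- mice read 319, 471, 248, 422 and 296 units with LPS, against 2218, 2273, 2229, 2051 and 2130 units with vehicle. Ugt2b34 in wild type mice read 758, 815, 560.1, 478 and 533 units with LPS, against 2003, 2180, 2732, 2162 and 2138 units with vehicle. The LPS and vehicle mice were far apart, by 6.38-fold in MCAD-/- mice (-2.67 ± 0.17, adjusted p = 5.09e-11) and 3.63-fold in wild type mice (-1.86 ± 0.17, adjusted p = 1.01e-08). The responses differed by -0.81 ± 0.23 (adjusted p = 0.0531), which passed in 10 of 29 alternatives (adjusted p from 0.0235 to 0.0912).

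Ugt2a3 fell in both genotypes. Ugt2a3 in MCAD-/- mice read 396, 485, 514, 598 and 410.1 units with LPS, against 1802, 1591, 1673, 1792 and 1580 units with vehicle. Ugt2a3 in wild type mice read 423, 381, 368, 333 and 338 units with LPS, against 1289, 1140, 1630, 1238 and 1220 units with vehicle. No LPS mouse reached the level of a vehicle mouse of its genotype, and the differences were -1.83 ± 0.12 in MCAD-/- mice (adjusted p = 1.11e-10) and -1.82 ± 0.12 in wild type mice (adjusted p = 1.39e-10). The difference of the responses was -0.01 (95% interval -0.36 to 0.34).

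Ugt2b36 and Ugt2b5, whose start regions resemble that of Ugt2b38, fell as well. Ugt2b36 in MCAD-/- mice read 1403, 1769, 1321, 1848 and 1837 units with LPS, against 4727, 4551, 4862, 4708 and 4191 units with vehicle. Ugt2b36 in wild type mice read 2312, 1809, 2054, 1542 and 1663 units with LPS, against 4803, 4972, 5563, 4815 and 4810 units with vehicle. The falls were 2.84-fold in MCAD-/- mice (-1.51 ± 0.12, adjusted p = 1.61e-09) and 2.69-fold in wild type mice (-1.43 ± 0.12, adjusted p = 4.01e-09), with no overlap. Ugt2b5 in MCAD-/- mice read 1016, 1396, 935, 1530 and 969.6 units with LPS, against 3502, 3509, 4283, 3655 and 2959 units with vehicle. Ugt2b5 in wild type mice read 1925, 1673, 1365, 1226 and 1105 units with LPS, against 3022, 3670, 4263, 3841 and 3356 units with vehicle. Again no ranges overlapped, and the differences were -1.64 ± 0.16 in MCAD-/- mice (adjusted p = 5.07e-08) and -1.34 ± 0.16 in wild type mice (adjusted p = 7.98e-07).

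Ugt3a2 fell in both genotypes. Ugt3a2 in MCAD-/- mice read 709, 629, 427, 686 and 586 units with LPS, against 1267, 1363, 1908, 1401 and 1120 units with vehicle. Ugt3a2 in wild type mice read 557, 683, 531, 278 and 610.3 units with LPS, against 1440, 1759, 1685, 1753 and 1856 units with vehicle. LPS and vehicle mice did not overlap, with differences of -1.22 ± 0.20 in MCAD-/- mice (adjusted p = 2.52e-05) and -1.73 ± 0.20 in wild type mice (adjusted p = 3.33e-07). Ugt2b1 fell with a log2 difference of -1.55 ± 0.19 in MCAD-/- and -1.65 ± 0.19 in wild type mice (adjusted p = 7.41e-07 and 3.47e-07). Ugt2b35 fell least, with a log2 difference of -0.75 ± 0.16 in MCAD-/- mice (adjusted p = 0.000452) and -0.39 ± 0.16 in wild type mice (adjusted p = 0.042). The wild type call of Ugt2b35 ended in 10 of 30 alternatives (adjusted p from 0.00615 to 0.157), among them without replicate 2, 3, 4 or 5 of the wild type mice with LPS or replicate 1 or 3 of the wild type mice with vehicle. Ugt2b37 did not pass in either genotype, at -0.40 ± 0.62 in MCAD-/- and -0.21 ± 0.62 in wild type mice.

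Of the 17 tested Gst genes, 14 fell and 1 rose in MCAD-/- mice, and 11 fell and 1 rose in wild type mice. Gsta3, an alpha class enzyme that detoxifies aflatoxin epoxide in mouse liver, fell most. Gsta3 in MCAD-/- mice read 598, 1580, 1176, 858 and 1548 units with LPS, against 4637, 4564, 6128, 5694 and 4978 units with vehicle. Gsta3 in wild type mice read 2545, 2173, 1599, 1087 and 1050 units with LPS, against 5419, 6737, 5193, 6010 and 6749 units with vehicle. All LPS mice lay under all vehicle mice, 4.78-fold lower on average in MCAD-/- mice (-2.26 ± 0.25, adjusted p = 2.34e-07) and 3.77-fold lower in wild type mice (-1.91 ± 0.25, adjusted p = 2.09e-06). Its second probe set fell by 3.87 on the log2 scale in MCAD-/- and by 2.93 in wild type mice.

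The start region of Gsta3 (chr1:21240335-21240634, plus strand) is shown because it holds the letters TGACNNNGC, the core bound by NRF2, a known activator of Gst genes. Of the 38 members with a start window in the RefSeq table, 3 held this core (Gsta3, Gstm5 and Gstm7), and 12.39% of all start windows did. Capitals also mark TTNNGNAA and GTTAAT matches.
Gsta3: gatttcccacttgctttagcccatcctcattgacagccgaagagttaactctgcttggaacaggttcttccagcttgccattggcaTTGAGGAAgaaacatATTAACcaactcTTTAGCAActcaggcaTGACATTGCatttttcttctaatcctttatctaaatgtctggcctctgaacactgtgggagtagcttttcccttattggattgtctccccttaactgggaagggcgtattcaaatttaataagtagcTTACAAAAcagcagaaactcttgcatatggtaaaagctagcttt

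Gsta2 and Gsta4 fell in both genotypes, Gsta2 with a log2 difference of -0.89 ± 0.27 in MCAD-/- and -0.84 ± 0.27 in wild type mice, and Gsta4 with a log2 difference of -1.40 ± 0.27 in MCAD-/- and -0.88 ± 0.27 in wild type mice. Gstk1, the kappa class enzyme of mitochondria and peroxisomes, fell with little scatter. Gstk1 in MCAD-/- mice read 722, 683, 785, 898 and 744 units with LPS, against 1377, 1496, 1217, 1351 and 1605 units with vehicle. Gstk1 in wild type mice read 645, 615, 559, 575 and 752 units with LPS, against 1332, 1261, 1521, 1208 and 1232 units with vehicle. LPS and vehicle mice were apart in both genotypes, with a log2 difference of -0.88 ± 0.11 in MCAD-/- mice (adjusted p = 6.42e-07) and -1.06 ± 0.11 in wild type mice (adjusted p = 5.6e-08).

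Gsto1 of the omega class, which reduces dehydroascorbate and glutathionylated thiols, fell as well. Gsto1 in MCAD-/- mice read 228, 246, 262, 268 and 250.5 units with LPS, against 736, 599, 717, 887 and 558 units with vehicle. Gsto1 in wild type mice read 251, 185, 213, 246 and 271 units with LPS, against 686, 576, 389.5, 480.5 and 539.9 units with vehicle. The ranges were apart, 2.75-fold in MCAD-/- mice (-1.46 ± 0.15, adjusted p = 5.07e-08) and 2.27-fold in wild type mice (-1.18 ± 0.15, adjusted p = 8.78e-07). A second Gsto1 probe set fell further, with log2 differences of -2.28 in MCAD-/- and -1.81 in wild type mice. Between genotypes it read -0.36 with LPS and 0.11 with vehicle, where the brighter one read 0.12 and 0.39, none past the test.

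The theta class genes Gstt1 and Gstt2 fell in both genotypes, unlike Gstt3. Gstt2 in MCAD-/- mice read 232, 209, 218, 177 and 206 units with LPS, against 566, 519, 679, 691 and 532 units with vehicle. Gstt2 in wild type mice read 359, 249, 267, 326 and 269 units with LPS, against 547, 669, 644, 649 and 641 units with vehicle. No ranges overlapped, and the falls were -1.51 ± 0.12 in MCAD-/- mice (adjusted p = 1.33e-09) and -1.11 ± 0.12 in wild type mice (adjusted p = 1.11e-07). Gstt1 fell with a log2 difference of -1.05 ± 0.14 in MCAD-/- and -1.01 ± 0.14 in wild type mice (adjusted p = 2.22e-06 and 4.1e-06).

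Of the 7 mu class genes, 6 fell in MCAD-/- mice (all but Gstm2) and 3 in wild type mice (Gstm4, Gstm6 and Gstm7). Gstm1 in MCAD-/- mice read 1715, 2508, 2887, 2446 and 2923 units with LPS, against 3305, 4041, 4175, 3837 and 4127 units with vehicle. Gstm1 in wild type mice read 2598, 2379, 2364, 2058 and 2779 units with LPS, against 4627, 3586, 1711, 3488 and 3918 units with vehicle. The MCAD-/- ranges were apart, while in wild type mice replicate 3 with vehicle, which had a high actin ratio, lay below the LPS mice. The difference was -0.66 ± 0.20 in MCAD-/- mice (adjusted p = 0.00682) and -0.44 ± 0.20 in wild type mice (adjusted p = 0.0594). It passed in wild type mice in 6 of 30 alternatives, among them without that mouse (adjusted p from 0.00041 to 0.174), and in the gene's other 3 probe sets (log2 differences -0.50, -0.52 and -0.52).

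Gstm4 fell with a log2 difference of -1.54 ± 0.18 in MCAD-/- and -1.33 ± 0.18 in wild type mice, and Gstm7 with a log2 difference of -1.26 ± 0.19 in MCAD-/- and -1.19 ± 0.19 in wild type mice. Gstm6 fell with a log2 difference of -0.56 ± 0.22 in MCAD-/- mice (adjusted p = 0.0331) and -0.94 ± 0.22 in wild type mice (adjusted p = 0.00105). The MCAD-/- call of Gstm6 ended without replicate 1, 2 or 3 of the MCAD-/- mice with LPS or replicate 1 or 2 of the MCAD-/- mice with vehicle (adjusted p from 0.00057 to 0.0705 over the alternatives). Gstm3 and Gstm5 fell in MCAD-/- mice with a log2 difference of -0.83 ± 0.29 and -0.33 ± 0.10, and read -0.46 ± 0.29 and -0.21 ± 0.10 in wild type mice, which did not pass. The Gstm3 call ended without replicate 1 of the MCAD-/- mice with LPS (adjusted p from 0.00594 to 0.0565). Gstm2 did not pass in either genotype, at -0.38 ± 0.20 in MCAD-/- and -0.31 ± 0.20 in wild type mice.

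In the pi class, Gstp1 fell with a log2 difference of -0.27 ± 0.10 in MCAD-/- mice (adjusted p = 0.0237), a call that ended without replicate 1 of the MCAD-/- mice with LPS or replicate 3 of the MCAD-/- mice with vehicle (adjusted p from 0.00664 to 0.065), and read -0.13 ± 0.10 in wild type mice (adjusted p = 0.257). Its spread within groups, 0.14 on the log2 scale, was the smallest of the tested members. Gstp3 rose in wild type mice by 0.74 ± 0.25 (adjusted p = 0.0133) and read -0.09 ± 0.25 in MCAD-/- mice (adjusted p = 0.762). The rise did not pass without the 2 wild type mice of high actin ratio (adjusted p from 0.000676 to 0.0788).

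Of the 6 tested Sult genes, 4 fell in MCAD-/- mice and 3 in wild type mice, and Sult1e1 rose in both. Sult1e1 in MCAD-/- mice, given per mouse above, was 41.7-fold higher with LPS (5.38 ± 0.43, adjusted p = 1.84e-09), a size that depends on 3 vehicle values under 16 units. In wild type mice it was 9.63-fold higher (3.27 ± 0.43, adjusted p = 1.69e-06). All 10 LPS mice were above all 10 vehicle mice. On chromosome 5 Sult1e1 adjoins Sult1d1, which adjoins Sult1b1, and 2 coding genes lie between Sult1b1 and Ugt2b38. Sult1d1 and Sult1b1 fell. The start region of Sult1e1 (chr5:87591562-87591861, minus strand) is shown as that of the only member that rose in both genotypes, with TTNNGNAA and AGGTCA matches, both on the opposite strand, in capitals.
Sult1e1: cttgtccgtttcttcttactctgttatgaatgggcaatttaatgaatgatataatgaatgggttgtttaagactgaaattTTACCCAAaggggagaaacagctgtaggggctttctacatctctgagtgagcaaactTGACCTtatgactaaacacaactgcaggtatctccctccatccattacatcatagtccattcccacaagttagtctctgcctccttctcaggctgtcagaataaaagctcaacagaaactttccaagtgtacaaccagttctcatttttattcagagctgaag

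Sult1b1, which sulfates thyroid hormones, fell most among the Sult genes. Sult1b1 in MCAD-/- mice read 54.3, 74.3, 35.4, 46.0 and 37.5 units with LPS, against 184, 263, 318, 268 and 270 units with vehicle. Sult1b1 in wild type mice read 50.8, 64.4, 41.5, 31.2 and 44.4 units with LPS, against 349.6, 306, 402, 261 and 294 units with vehicle. The ranges were far apart, 5.39-fold in MCAD-/- mice (-2.43 ± 0.21, adjusted p = 4.7e-09) and 7.06-fold in wild type mice (-2.82 ± 0.21, adjusted p = 6.93e-10).

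Sult2a8, a bile acid sulfotransferase of mouse liver, fell too. Sult2a8 in MCAD-/- mice read 756, 978, 838, 1084 and 1110 units with LPS, against 4608, 5349, 5506, 4341 and 4035 units with vehicle. Sult2a8 in wild type mice read 997, 1053, 942, 478 and 765 units with LPS, against 3700, 4922, 5012, 4648 and 4629 units with vehicle. No LPS mouse came near a vehicle mouse, and the falls were 5.02-fold in MCAD-/- mice (-2.33 ± 0.18, adjusted p = 1.05e-09) and 5.58-fold in wild type mice (-2.48 ± 0.18, adjusted p = 4.93e-10).

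Sult1d1, a sulfotransferase of catecholamines in mice, fell in both genotypes. Sult1d1 in MCAD-/- mice read 1075, 1465, 779, 1097 and 874 units with LPS, against 2051, 2421, 1954, 2455 and 2531 units with vehicle. Sult1d1 in wild type mice read 1310, 1063, 1038, 428 and 1053 units with LPS, against 2870, 2622, 3395, 2551 and 2659 units with vehicle. The ranges were apart, with replicate 4 of the wild type mice with LPS the lowest, and the differences were -1.14 ± 0.22 in MCAD-/- mice (adjusted p = 0.000189) and -1.61 ± 0.22 in wild type mice (adjusted p = 3.82e-06).

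Sult1a1, the main sulfotransferase of small phenols, did not pass in any comparison. Sult1a1 in MCAD-/- mice read 3435, 3839, 3763, 3546 and 3805 units with LPS, against 3905, 3919, 3636, 4104 and 4881 units with vehicle. Sult1a1 in wild type mice read 4158, 4557, 5092, 3325 and 3555 units with LPS, against 4291, 3287, 3380, 3326 and 3639 units with vehicle. The ranges overlapped in both genotypes, and the LPS differences were -0.15 ± 0.12 in MCAD-/- mice (95% interval -0.39 to 0.10) and 0.20 ± 0.12 in wild type mice (-0.05 to 0.44).

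**Figure D4:**
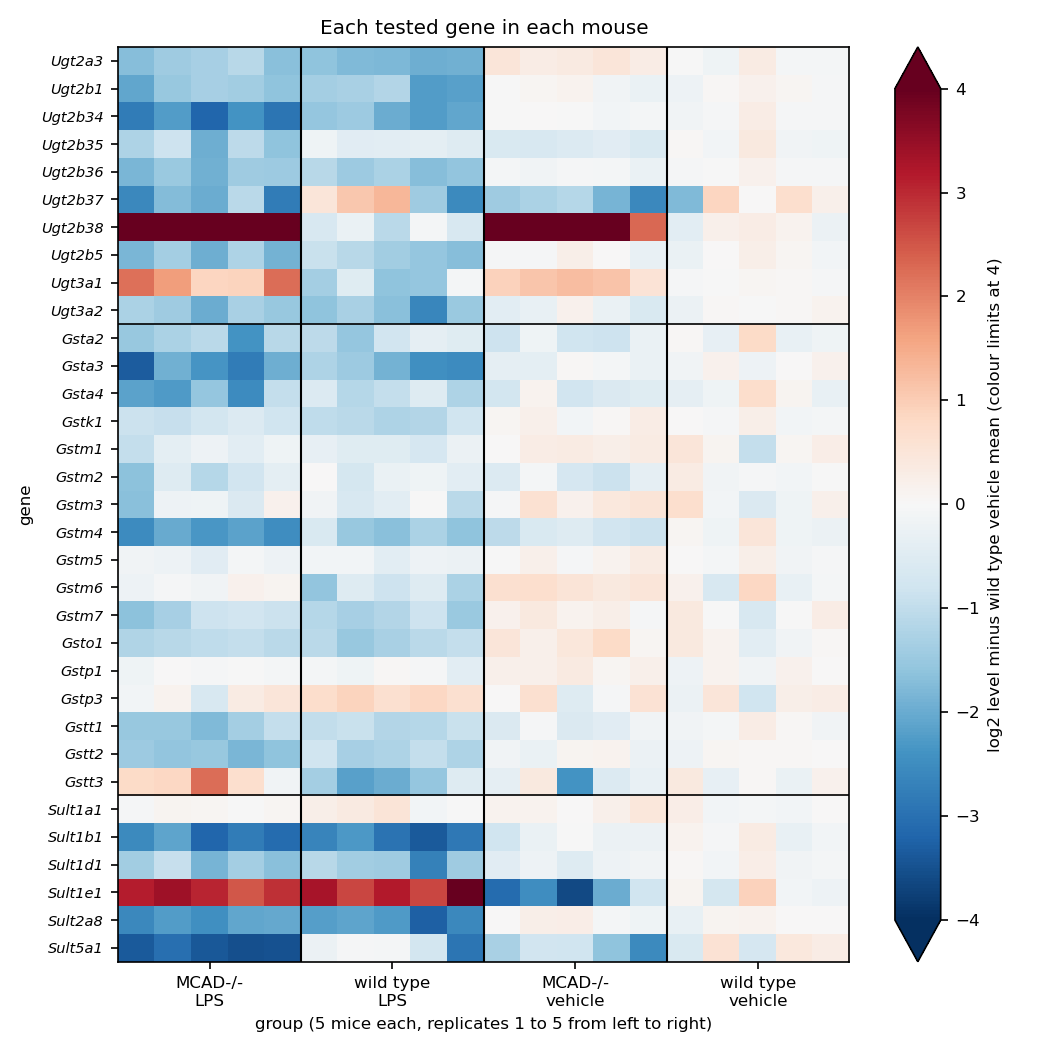
Rows are the 33 tested genes and columns the 20 mice (MCAD-/- LPS, wild type LPS, MCAD-/- vehicle, wild type vehicle from left to right), and colour is the log2 level minus the mean of the wild type vehicle mice, with red higher, blue lower and colours ending at 4. The blue LPS columns show the falls shared by the genotypes, against the red rows of Ugt2b38 in MCAD-/- mice and of Sult1e1 with LPS.

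The 10 members not tested were Gsto2, Gstt4, Sult1c1, Sult1c2, Sult2a2, Sult2b1, Sult3a1, Sult4a1, Sult6b1 and Ugt8a. Sult1c2 exceeded 16 units on 2 arrays, both with vehicle, with a highest value of 19.9 units. The other 9 stayed under 16 units on every array, which shows only that they were too dim to measure here. Of the 43 members, 10 had several probe sets, and the brightest was used. No probe set named for several Ugt or Gst genes (5 on the array) was used, and Ugt1a genes, which share exons, are for that reason not described.

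Of 10 genes on a list of cofactor enzymes and carriers, 4 fell and 1 rose with LPS in MCAD-/- mice, and 5 fell and 2 rose in wild type mice. Here and for the gene lists that follow, the share of all tested genes that changed with LPS was 65.7% in MCAD-/- and 64% in wild type mice, and counts near it show nothing particular to a list. Ugp2, which makes UDP-glucose, fell with a log2 difference of -1.93 ± 0.16 in MCAD-/- and -1.83 ± 0.16 in wild type mice, and Papss2, which makes PAPS, with a log2 difference of -2.68 ± 0.23 in MCAD-/- and -2.46 ± 0.23 in wild type mice. Gclm, the modifier subunit of the rate-limiting enzyme of glutathione synthesis, fell with a log2 difference of -1.20 ± 0.14 in MCAD-/- and -1.08 ± 0.14 in wild type mice. Gclc, the catalytic subunit of that enzyme, was the list's only gene whose LPS response differed between genotypes, by 1.10 ± 0.20 (adjusted p = 0.00264), and it was higher in MCAD-/- mice with LPS by 0.85 ± 0.14 (adjusted p = 0.000182). Gsr, which regenerates glutathione, was also higher in MCAD-/- mice with LPS (0.56 ± 0.16, adjusted p = 0.0173), and with vehicle only the sulfate carrier Slc26a1 differed (1.89 ± 0.52, adjusted p = 0.0167).

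Some ABC pumps carry conjugates out of hepatocytes. Of 5 ABC pumps tested, 4 fell and 1 rose with LPS in each genotype. Abcc2, the canalicular pump for glucuronides and glutathione conjugates, fell with a log2 difference of -1.58 ± 0.12 in MCAD-/- and -1.14 ± 0.12 in wild type mice, and Abcg2, which carries sulfates, with a log2 difference of -1.01 ± 0.16 in MCAD-/- and -0.99 ± 0.16 in wild type mice. Abcc6 fell with a log2 difference of -1.99 ± 0.26 in MCAD-/- and -1.44 ± 0.26 in wild type mice. With LPS, Abcb1b was higher in MCAD-/- than in wild type mice by 2.30 ± 0.55 (adjusted p = 0.00506), and Abcg2 and Abcc2 lower with a log2 difference of -0.60 ± 0.16 and -0.39 ± 0.12. With vehicle, Abcb1b was higher by 1.81 ± 0.55 and Abcg2 lower with a log2 difference of -0.57 ± 0.16. The sizes for Abcb1b depend on wild type values under 16 units. Of the wild type mice, 3 of 5 with LPS and 2 of 5 with vehicle exceeded 16 units for Abcb1b. Abcc1, Abcc4, Abcc5 and Abcb1a were under 16 units on all arrays.

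Of 13 tested regulators of these enzymes, 6 fell and 3 rose with LPS in MCAD-/- mice, and 5 fell and 2 rose in wild type mice. Nr1i3, the receptor CAR, fell with a log2 difference of -4.43 ± 0.44 in MCAD-/- and -2.35 ± 0.44 in wild type mice, and was lower in MCAD-/- mice with LPS (log2 difference -2.03 ± 0.44, adjusted p = 0.0027). The responses of the genotypes did not differ past the test (-2.07 ± 0.63, adjusted p = 0.0641). Ahr, the dioxin receptor, rose by 1.09 ± 0.14 in MCAD-/- and 0.63 ± 0.14 in wild type mice, and Keap1, the inhibitor of NRF2, by 0.81 ± 0.14 in MCAD-/- and 0.77 ± 0.14 in wild type mice. Ppara, the receptor of fatty acids, fell with a log2 difference of -1.36 ± 0.18 in MCAD-/- and -0.73 ± 0.18 in wild type mice, and Cebpa with a log2 difference of -0.51 ± 0.13 in MCAD-/- and -0.67 ± 0.13 in wild type mice. With vehicle, Ppara was higher in MCAD-/- mice by 0.58 ± 0.18 (adjusted p = 0.0313). Nfe2l2, the gene of NRF2, was lower (log2 difference -0.39 ± 0.13, adjusted p = 0.0372).

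**Figure D5:**
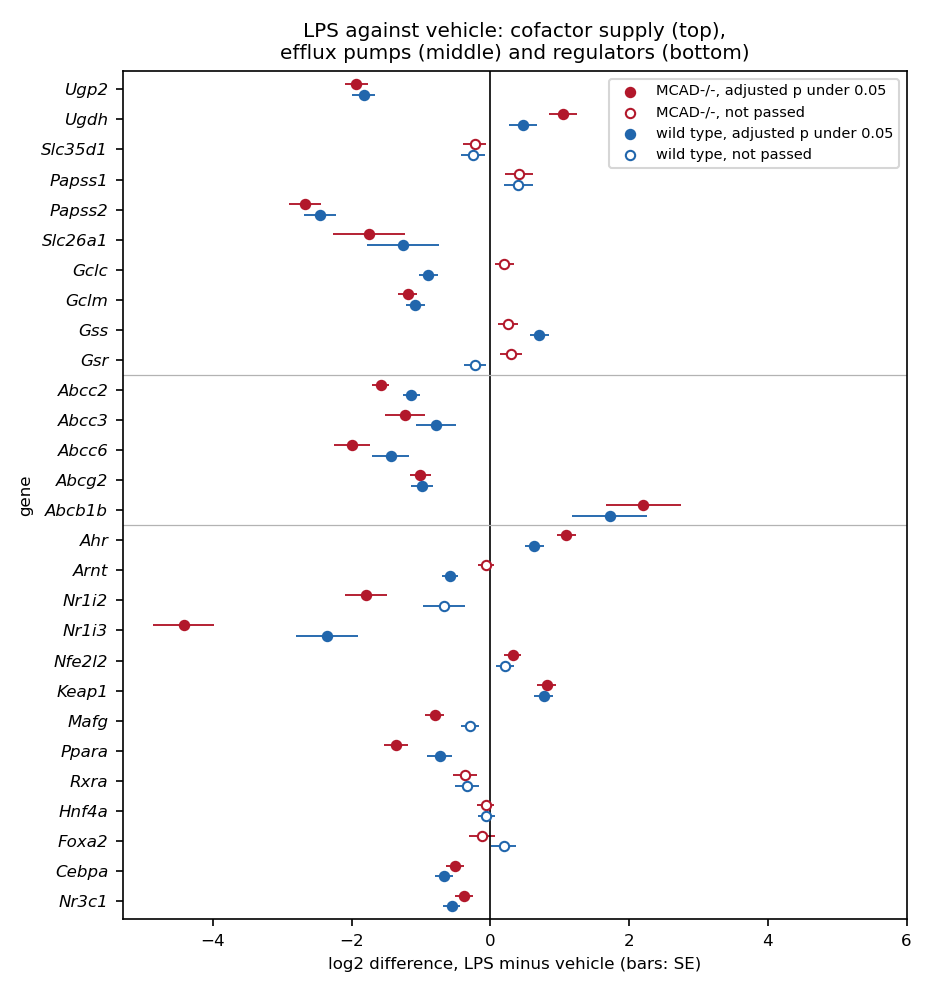
The x axis is the log2 difference, LPS minus vehicle, and the y axis lists cofactor genes (top), ABC pumps (middle) and regulators (bottom). Red points are MCAD-/- and blue points wild type mice, bars are SE and filled points passed an adjusted p of 0.05, with Nr1i3 furthest left (-4.43 and -2.35) and Abcb1b furthest right (2.21 and 1.72). The wild type size for Abcb1b depends on values under 16 units.

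Genes that the receptors induce moved unevenly. Of 4 tested cytochrome P450 genes, 3 fell and 1 rose with LPS in each genotype. Cyp2b10, the classical CAR target, rose by 3.08 ± 0.45 in MCAD-/- and 1.09 ± 0.45 in wild type mice. Cyp2b10 was lower in MCAD-/- than in wild type mice, with a log2 difference of -2.49 ± 0.45 with LPS (adjusted p = 0.000562) and -4.48 ± 0.45 with vehicle (adjusted p = 4.41e-07). Only 1 of 5 MCAD-/- mice with vehicle exceeded 16 units for Cyp2b10. The sizes of its MCAD-/- rise and of its vehicle difference depend on the values under 16 units. Cyp1a2 fell with a log2 difference of -1.29 ± 0.17 in MCAD-/- and -0.97 ± 0.17 in wild type mice. Of 4 tested NRF2 targets outside the families, 3 rose (Hmox1, Srxn1 and Txnrd1) and 1 fell (Me1) in each genotype, and with LPS Hmox1 was higher in MCAD-/- mice by 1.26 ± 0.29 (adjusted p = 0.00367). The genotype differences of Me1 (-0.66), Srxn1 (-0.62) and Txnrd1 (-0.13) with LPS did not pass. With vehicle, Me1 (-0.95 ± 0.24, adjusted p = 0.00957) and Txnrd1 (-0.36 ± 0.10, adjusted p = 0.0213) were lower in MCAD-/- mice. Hmox1 (0.64) and Srxn1 (0.05) did not pass with vehicle.

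Among 11 tested conjugating enzymes of other families, 5 fell and 3 rose with LPS in each genotype. Hnmt, histamine N-methyltransferase, fell with a log2 difference of -3.75 ± 0.23 in MCAD-/- and -3.36 ± 0.23 in wild type mice. Inmt fell with a log2 difference of -2.66 ± 0.29 in MCAD-/- and -1.90 ± 0.29 in wild type mice, and Gstz1, an enzyme of tyrosine breakdown, with a log2 difference of -0.64 ± 0.13 in MCAD-/- and -1.04 ± 0.13 in wild type mice. Nnmt, nicotinamide N-methyltransferase, was higher in MCAD-/- mice by 0.65 ± 0.18 with LPS and 0.99 ± 0.18 with vehicle, and Glyat, which couples glycine to acyl-CoA, was lower in MCAD-/- mice with LPS (log2 difference -0.76 ± 0.15, adjusted p = 0.00153). Gusb, the lysosomal enzyme that removes glucuronic acid, fell with a log2 difference of -1.06 ± 0.13 in MCAD-/- and -0.38 ± 0.13 in wild type mice, and these responses differed (adjusted p = 0.0366). Gusb was higher in MCAD-/- mice with vehicle by 0.66 ± 0.13 (adjusted p = 0.00107), and its genotype difference with LPS was -0.01 ± 0.13 (adjusted p = 0.964).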

How the data were processed

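Liver RNA of 20 mice was hybridised to 20 arrays. The authors deposited intensity values on a linear scale, made with GCRMA per the submitters' processing notes (version not given in the sources used here); GCRMA models probe background by sequence, equalises arrays and gives 1 value per probe set, and small values depend on its background model. No further normalization was done. Of 45101 probe sets, 34945 had 1 gene symbol in the platform annotation, 932 had several and 9160 had none listed; 64 were controls. The brightest probe set stood for each gene, and 8774 of 18193 genes passed 16 units on at least 5 arrays. Log2 values were fitted with limma 3.58.1 in R 4.3.3 by group, with empirical Bayes spread, two-sided tests and Benjamini-Hochberg adjustment over all tested genes. The number of arrays limits the precision. Groups and replicate numbers came from the labels.

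Values per mouse are given for the members of each family with the smallest adjusted p per comparison (4 of each, 2 for the difference of responses) and for Ugt2b38, Gstm1 and Sult1a1; of each other list up to 3 genes per comparison are named. The members and lists were chosen with earlier results of these data known. The tests were checked on simulated data in which few genes changed. Changes of 1.5-fold were recovered in 44.8% to 55.2% of cases between groups and in 14.9% for the difference of responses. For changes of 2-fold the shares were 79.1% to 89.6% and 70.1%. A gene that did not pass may therefore still have changed. Start windows from RefSeq were matched by gene ID for 38 of 43 members. The replicate numbers were not used as a pairing in the main fit. After group means were removed, the correlations of same-numbered mice ran from -0.121 to 0.284. Of 5 mice, 2 correlated best with their own number between genotypes with LPS and for LPS in wild type mice. The count was 1 for LPS in MCAD-/- mice and 0 between genotypes with vehicle. These values cannot decide whether mice of the same number shared a factor.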

Additional observations from a re-analysis of the deposited data

Results flagged for a closer look

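Acadm and each tested member were examined in every group with a mouse above 16 units, by Dixon's criterion for 5 values. In 9 of 134 groups the highest or lowest mouse stood apart. Chance gives about 1 in 20 groups. Of these, 3 concern replicate 3 of the wild type mice with vehicle, which had a high actin ratio. It read low for Gstm1 (1711 units, next 3488) and high for Ugt2b34 (2732, next 2180) and Ugt2b36 (5563, next 4972). Replicate 1 of the same group read low for Gstt2 (547.3 units, next 640.8) and Sult2a8 (3700, next 4629) and high for Gstm2 (565.2, next 441.1). Replicate 4 of the wild type mice with LPS, the other mouse with a high actin ratio, read low for Sult1d1 (427.8 units, next 1038) and Ugt3a2 (277.5, next 530.8). Replicate 5 of the wild type mice with LPS read low for Sult5a1 (18.27 units, next 82.9).

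The LPS response differed between the genotypes in 3 members by the test of the difference itself. Gstt3 differed by 3.03 on the log2 scale, MCAD-/- minus wild type, with a rise in MCAD-/- and a fall in wild type mice. The size of this difference depends on wild type LPS values under 16 units. Ugt2b38 differed by 2.19, which rests on wild type values under 16 units. Ugt3a1 differed by 1.60, which did not pass in 10 of 29 alternatives. What moves these genes was not tested.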

How the results depend on the processing

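Each count of members was recomputed under 30 alternatives, of which 20 leave out 1 mouse; the difference of responses had 29, since it cannot be fitted on 2 groups alone. The number that passed was 28 for LPS in MCAD-/- mice (25 to 29 with a mouse left out, 27 to 30 otherwise) and 24 for LPS in wild type mice (23 to 25, and 23 to 27). It was 14 for the genotypes with LPS (10 to 15, and 11 to 16), 7 for the genotypes with vehicle (4 to 8, and 7 to 9) and 3 for the difference of responses (2 to 6, and 2 to 4). The vehicle count was 4 without replicate 4 of the MCAD-/- mice with vehicle or replicate 2 or 5 of the wild type mice with vehicle. The difference of responses passed for 5 members without replicate 4 of the MCAD-/- mice with LPS and for 6 without replicate 5 of the wild type mice with LPS. Of 78 results that passed over single members and Acadm, 63 passed in every alternative that tested them, 15 missed in at least 1 and 0 turned round in sign. Gstt3 and Ugt2b37 were too dim for the stricter filter. Another 20 passed in at least 1 alternative but not as reported. With the replicate number as a block, 28 members passed for LPS in MCAD-/- mice and 23 for LPS in wild type mice. In that fit 14 and 7 passed for the genotypes and 4 for the difference of responses. The check of the numbers could not decide whether they mark a pairing. Leaving out the wild type mice of high actin ratio, an alternative chosen after seeing the data, gave counts of 28, 23, 14, 7 and 3 in the same order. The causes were not tested. Signals under 16 units limit folds, and the deposited intensities do not show how much of a probe set's signal comes from related transcripts.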
